A study of Mus musculus with 8 samples.

Results

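The genes described here are 9 members of the imprinted *Igf2*-*H19* and *Kcnq1* domains of distal mouse chromosome 7, namely *H19*, *Igf2*, *Ins2*, *Ascl2*, *Kcnq1*, *Cdkn1c*, *Phlda2*, *Nap1l4* and *Osbpl5*. They were chosen by gene symbol alone, out of 18120 symbols on the array, and are represented by 10 of its 25697 probes, with 2 probes for *Kcnq1* and 1 for each of the others. Glomeruli came from 8 male mice of the FVB/N strain at the age of 3 weeks. Of these, 4 were *Cd151*-/- mice, which carry a homozygous deletion of the tetraspanin gene *Cd151* and develop early proteinuria on this background, and 4 were *Cd151*+/+ controls. The glomeruli were collected by perfusing magnetic beads through the heart and digesting the kidney with collagenase, and the RNA of each mouse was read on 1 array of the Illumina MouseRef-8 v1.1 BeadChip. The question put to these data was whether loss of *Cd151*, which lies on the same chromosome, was accompanied by a different level of any of these genes.

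Genomic imprinting is the expression of a gene from the copy inherited from 1 parent only. In the first of the 2 domains, the maternal chromosome makes the long non-coding RNA *H19* and the paternal chromosome makes *Igf2*, a growth factor of fetal and early postnatal tissues, and the choice is set by a methylated control region between them that steers shared enhancers. In the second domain, the non-coding RNA *Kcnq1ot1* silences *Cdkn1c*, *Phlda2*, *Ascl2* and others on the paternal chromosome. *Cdkn1c* encodes the cyclin-dependent kinase inhibitor p57Kip2, which marks mature, non-dividing podocytes in the glomerulus. The bead arrays read total RNA and cannot separate the parental copies. In such bulk RNA, fewer cells of a type and less RNA per cell cannot be told apart.

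Levels are normalised log2 signals, in which a step of 1 is a doubling, and a probe was called detected on an array when its detection p-value, the share of negative-control probes at least as bright, was 0.05 or lower. Each array gave 11291 to 12359 detected probes. The inferred background split the arrays into a set with lower background, 59.0 to 69.5 signal units, and a set with higher background, 123 to 135 units, each holding 2 mice of each genotype, so that every difference could also be taken within a set. The 3 *Cd151* probes were above background in every *Cd151*+/+ mouse and in no *Cd151*-/- mouse, as the labels require (limma adjusted p of 2.97e-07 or lower). Markers of the glomerulus were present, the podocyte surface gene *Podxl* at 12.01 ± 0.30 and the endothelial gene *Ehd3* at 13.66 ± 0.40 in *Cd151*+/+ mice (SD, n = 4), whereas the podocyte probes of *Kirrel1*, *Cd2ap* and *Magi2* were not detected on any array. Tubule RNA was present too, with 7 proximal tubule markers averaging 9.54 to 10.76 in *Cd151*+/+ and 10.45 to 11.75 in *Cd151*-/- mice.

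The *H19* and *Igf2* transcripts are also the hosts of microRNAs, whose mature sequences are shown because they are the short regulatory products of the pair of genes with the lowest p-values among the members. The sequences are from RefSeq on mouse build GRCm38.p6, chromosome 7, minus strand, written 5′ to 3′ with the seed, bases 2 to 8, in capitals.
mmu-miR-675-5p (in *H19*): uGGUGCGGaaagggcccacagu
mmu-miR-675-3p (in *H19*): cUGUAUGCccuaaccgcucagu
mmu-miR-483-5p (in *Igf2*): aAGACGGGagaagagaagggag
mmu-miR-483-3p (in *Igf2*): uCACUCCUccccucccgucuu
No seed is shared among these 4. The levels of the microRNAs themselves were not analysed here, and the probes read the host RNAs.

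Of the 10 member probes, 7 were detected on at least 1 array and tested, covering 6 genes, and 6 of them were detected on all 8 arrays. The probes of *Ins2*, *Ascl2* and *Osbpl5* were detected on none. After Benjamini-Hochberg adjustment over all 14967 probes tested with limma, 0 of the 7 passed an adjusted p of 0.05, against 0.0334% of all tested probes. At an unadjusted p of 0.05 or lower there were 2, *H19* and *Igf2*, both with the higher mean in *Cd151*-/- mice, against 4.3% of all tested probes in either direction and 1.69% in this direction. None had it with the lower mean, against 2.61% of all tested probes. No member probe had genotypes that did not overlap, against 2.31% of all tested probes, 0.855% with the *Cd151*-/- mice higher and 1.46% with them lower. The median log2 fold change, *Cd151*-/- minus *Cd151*+/+, was 0.06 over the 7 member probes, 5 positive and 2 negative, and -0.0073 over all tested probes, of which 49.1% were positive.

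**Figure D1:**
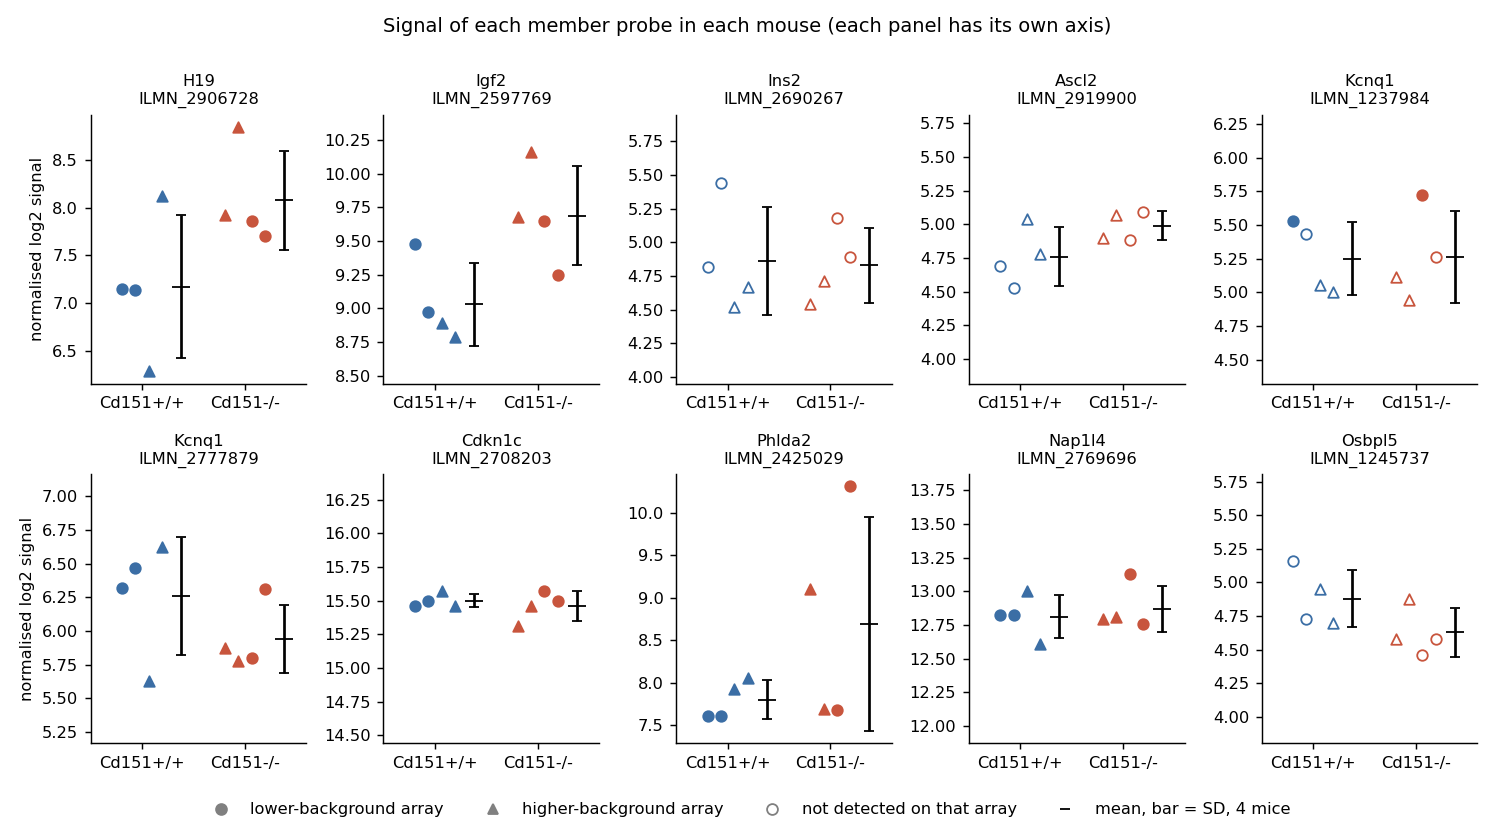
Normalised log2 signal of the 10 member probes in each mouse, with a separate axis for each probe and probes in chromosomal order. Points are mice, drawn as circles for lower-background and triangles for higher-background arrays and unfilled where the probe was not detected, and black bars give the mean and SD of 4 mice. The genotypes overlap for every detected probe, *Phlda2* is high in *Cd151*-/- mice 1 and 4 alone, at 9.10 and 10.31, and *Ins2*, *Ascl2* and *Osbpl5* have unfilled points throughout.

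*H19*, the maternally expressed non-coding RNA, was detected in all 8 mice (probe ILMN_2906728). Its level was 7.15, 7.14, 6.28 and 8.12 in *Cd151*+/+ mice 1 to 4 and 7.92, 8.85, 7.86 and 7.70 in *Cd151*-/- mice 1 to 4. One control, mouse 4, lay above 3 of the 4 *Cd151*-/- mice, and the other controls lay below all of them. The means were 7.17 ± 0.75 and 8.08 ± 0.52 (SD, n = 4), a log2 fold change of 0.91 (SE 0.38) or 1.88-fold, with a 95% interval of 1.05-fold to 3.37-fold. The limma p was 0.0372 before and 0.918 after adjustment, and a two-sided exact permutation test, whose 70 relabelings of the mice allow no p below 0.0286, gave 0.114. Within the lower-background arrays the log2 fold change was 0.64 and within the higher-background arrays 1.18. Signals were modest, 1.56 to 7.01 times the background of the array.

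*Igf2*, the paternally expressed growth factor, was likewise detected in every mouse (ILMN_2597769). Its level was 9.48, 8.97, 8.89 and 8.79 in *Cd151*+/+ mice 1 to 4 and 9.68, 10.16, 9.65 and 9.25 in *Cd151*-/- mice 1 to 4. The genotypes overlapped through a single pair, since control mouse 1 exceeded *Cd151*-/- mouse 4. The means of 9.03 ± 0.31 and 9.69 ± 0.37 (SD, n = 4) gave a log2 fold change of 0.66 (SE 0.25), or 1.58-fold, with a 95% interval of 1.07-fold to 2.32-fold. The limma p was 0.0249, or 0.918 after adjustment, and the exact permutation p was 0.0571. Within the array sets the log2 fold change was 0.23 on the lower-background and 1.08 on the higher-background arrays.

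Both genes were highest in *Cd151*-/- mouse 2. Without it the log2 fold change was 0.65 (an unadjusted limma p of 0.11) for *H19* and 0.50 (0.0781) for *Igf2*. The unadjusted call of *H19* was also lost without control mouse 1, 2 or 3, at limma p-values of 0.0636, 0.0652 and 0.117, and that of *Igf2* without control mouse 2, 3 or 4, at 0.0565, 0.0575 and 0.0637. The same *Cd151*-/- mouse 2 had the highest mean of the 6 tested podocyte markers, 11.77, and of the 4 erythroid markers, 10.11, of all 8 mice, and their part in its *H19* and *Igf2* values was not tested. Of the 3 tested stromal fibroblast markers, 1 had a positive and 2 a negative log2 fold change, and their mean level was 6.26 to 6.78 in *Cd151*+/+ and 5.60 to 6.57 in *Cd151*-/- mice. *Col1a2*, with a negative value, was detected in 1 *Cd151*+/+ mouse and 0 *Cd151*-/- mice. It passed the detection filter through a *Cd151*+/+ array alone.

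Across the 8 mice, the levels of *H19* and *Igf2* had a Pearson r of 0.64 (permutation p = 0.0909, 0.273 adjusted over 3 relations) and a Spearman rho of 0.48 (permutation p = 0.243, adjusted 0.493). The relation rested on the extremes of *H19*, since r was 0.02 without *Cd151*+/+ mouse 3 and *Cd151*-/- mouse 2. It was 0.32 after each genotype was centred on its own mean, and 0.64 after each array set was. The other 2 relations examined were those of *Cdkn1c* with *Igf2* and with the median of the podocyte markers. *Igf2* and *Cdkn1c* had r of -0.33 (permutation p = 0.438) and rho of -0.36 (permutation p = 0.377), and r was -0.51 without the 2 mice farthest from the median of *Igf2*. The normalised values of *Cdkn1c*, among the brightest probes, could hardly differ between arrays, as described below. These values therefore cannot show whether the genes vary together.

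*Ins2*, an insulin gene that follows *Igf2* on the chromosome, is a pancreatic beta cell product imprinted in the yolk sac. Its probe (ILMN_2690267) read 0.882 to 1.17 times the background, with detection p-values of 0.0526 to 0.823, and its normalised means of 4.86 ± 0.40 in *Cd151*+/+ and 4.83 ± 0.28 in *Cd151*-/- mice (SD, n = 4) are readings of background. It was not detectable at this sensitivity in either genotype and was not tested.

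The receptors, binding proteins and signalling partners through which IGF2 acts were examined as a list of 19 genes. Of these, 17 were on the array and 14 were tested, 6 with a positive and 8 with a negative log2 fold change, and the median was -0.08. None passed adjustment (0 of 14, against 0.0334% of all probes), and 1 had an unadjusted p of 0.05 or lower, against 4.3% of all probes. That count was 3 without *Cd151*+/+ mouse 4 or *Cd151*-/- mouse 3 and 2 without *Cd151*-/- mouse 2. Of all tested probes, 6.63%, 9.42% and 5.39% were called in these settings. It was also 2 without a detection filter, 3 with array set as a block and 6 with array weights. There, 4.26%, 11.3% and 32.2% of all tested probes were called. The gene was *Igfbp6*, a binding protein with a preference for IGF2, at 8.50 ± 0.51 in *Cd151*+/+ and 7.57 ± 0.38 in *Cd151*-/- mice (SD, n = 4), a log2 fold change of -0.93 (SE 0.30, limma p = 0.00957, adjusted 0.918, exact permutation p = 0.0571). The signalling receptor *Igf1r* had means of 8.91 ± 0.25 and 8.89 ± 0.26, with a log2 fold change of -0.02 (SE 0.22). *Igf2r*, itself an imprinted gene, encodes the receptor that carries IGF2 to the lysosome, and its means were 9.48 ± 0.23 and 9.66 ± 0.80, with a log2 fold change of 0.18 (SE 0.36). *Irs1*, an adaptor of the receptor, was detected in 3 *Cd151*-/- mice and no control. The mean of all 4 *Cd151*-/- mice, the undetected one included, was 1.09-fold the lowest detected signal of the control arrays. The genotype comparison gave a limma p of 0.0568 (adjusted 0.918) and an exact permutation p of 0.0857. *Irs1* passed the detection filter through the *Cd151*-/- arrays alone, so it was tested only because of the genotype where it was higher.

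In the *Kcnq1* domain, *Cdkn1c* was among the brightest of all probes. Its deposited signal (ILMN_2708203) was 28825, 31464, 61487 and 61401 in *Cd151*+/+ mice 1 to 4 and 58400, 57738, 34820 and 37623 in *Cd151*-/- mice 1 to 4, the larger numbers all from higher-background arrays. It was the brightest probe of the array in control mouse 3 and *Cd151*-/- mouse 3, ranked no lower than 7 on any array, and read 81.7 to 100% of the highest signal of its array. After normalisation the levels were 15.46, 15.50, 15.57 and 15.46 in *Cd151*+/+ and 15.31, 15.46, 15.57 and 15.50 in *Cd151*-/- mice. The 2 genotypes were thus interleaved, with *Cd151*-/- mouse 1 the lowest. The means were 15.50 ± 0.05 and 15.46 ± 0.11 (SD, n = 4), a log2 fold change of -0.04 (SE 0.18, limma p = 0.843, adjusted 0.977, exact permutation p = 0.8), and the 95% interval of the ratio ran from 0.735-fold to 1.29-fold. Quantile normalisation gives probes of the same rank the same value on every array. At ranks 1 to 7 the normalised values could therefore hardly differ between arrays, and the interval does not bound a change of the gene. Scaling to the 75th percentile, which does not equalise ranks in this way, gave a log2 fold change of -0.21 (SE 0.35). Whether the reading was near saturation was not tested.

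*Cdkn1c* and the podocyte markers were also set beside each other by mouse. The 6 tested podocyte markers had a median log2 fold change of -0.25, 1 positive and 5 negative. Of these, 0 had an unadjusted p of 0.05 or lower, against 4.3% of all tested probes. The positive one, *Foxc2*, was detected in 0 *Cd151*+/+ and 2 *Cd151*-/- mice. It passed the detection filter through the *Cd151*-/- arrays alone. Over 8 mice, the correlation of *Cdkn1c* with the median of the 6 markers was r of 0.31 (permutation p = 0.42) and rho of 0.28 (permutation p = 0.493). Without *Cd151*-/- mouse 1 and *Cd151*+/+ mouse 3, r was -0.09. After adjustment over the 3 relations the p-values were 0.438 for r and 0.493 for rho. Because the normalised values of *Cdkn1c* could hardly differ between arrays, these correlations cannot show whether the gene follows the podocyte markers.

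Of the other 6 cyclin-dependent kinase inhibitor genes, all were on the array and 5 were tested, 2 with a positive and 3 with a negative log2 fold change. Adjustment left 0 of the 5, against 0.0334% of all tested probes. One had an unadjusted p of 0.05 or lower, against 4.3% of all tested probes, and 0 had with 75th percentile scaling, against 2.6%. The count was 2 without *Cd151*+/+ mouse 3 or *Cd151*-/- mouse 2, against 5.26% and 5.39% of all tested probes. With array weights it was also 2, against 32.2%. *Cdkn2a*, the locus of p16 and p19Arf, was below detection in all 4 *Cd151*+/+ mice and detected in all 4 *Cd151*-/- mice, at 4.91 ± 0.24 and 5.58 ± 0.21 (SD, n = 4). Its genotypes did not overlap, as in 0.855% of all tested probes with the *Cd151*-/- mice higher. Set against the lowest detected signal of the control arrays *Cdkn2a* was at least 1.15-fold higher in *Cd151*-/- mice (limma p = 0.00945, adjusted 0.918, exact permutation p = 0.0286, the smallest that 4 against 4 mice allow). It passed the detection filter through the *Cd151*-/- arrays alone. It was thus tested only because of the genotype where it was higher, and these p-values are not separate support. *Cdkn1b*, which encodes p27Kip1 of the same family as p57Kip2, had means of 6.00 ± 0.61 and 5.55 ± 0.20 (limma p = 0.162, exact permutation p = 0.2), and *Cdkn1a*, which encodes p21, 9.94 ± 0.91 and 9.66 ± 0.73 (limma p = 0.567, exact permutation p = 0.6).

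*Phlda2*, a maternally expressed gene whose pleckstrin homology domain protein restrains placental growth, had the widest spread among the tested members. Its level (ILMN_2425029) was 7.61, 7.61, 7.93 and 8.05 in *Cd151*+/+ mice 1 to 4 and 9.10, 7.69, 7.68 and 10.31 in *Cd151*-/- mice 1 to 4. The *Cd151*-/- mice therefore differed among themselves, mice 1 and 4 above every control and mice 2 and 3 within the range of the controls. The means were 7.80 ± 0.23 and 8.69 ± 1.26 (SD, n = 4), a log2 fold change of 0.89 (SE 0.51), or 1.86-fold, with a 95% interval of 0.854-fold to 4.04-fold (limma p = 0.107, adjusted 0.918, exact permutation p = 0.286). Without *Cd151*-/- mouse 4 the log2 fold change was 0.35, at an unadjusted limma p of 0.345, and without *Cd151*-/- mouse 2 or mouse 3 it was 1.23, at unadjusted limma p-values of 0.0313 and 0.0327. It was 1.38 on the lower-background and 0.40 on the higher-background arrays.

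The *Cd151*-/- mice with high *Phlda2* were those with the highest proximal tubule signal. The 7 tested proximal tubule markers, among them the phosphate transporter *Slc34a1*, the glucose transporter *Slc5a2* and the organic anion transporter *Slc22a6*, averaged 11.15 in *Cd151*-/- mouse 1 and 11.75 in mouse 4, against 10.45 and 10.53 in mice 2 and 3 and 9.54 to 10.76 in the controls. All 7 had a positive log2 fold change (median 0.56). Of these, 1 had an unadjusted p of 0.05 or lower, against 4.3% of all tested probes and 1.69% in this direction. Adjustment left 0, against 0.0334% of all tested probes. Of these markers *Lrp2*, the endocytic receptor megalin, was detected in 0 *Cd151*+/+ and 2 *Cd151*-/- mice and the other 6 in all. *Lrp2* passed the detection filter through the *Cd151*-/- arrays alone, so it was tested only because of the genotype where it was higher. The same mice 1 and 4 had the lowest erythroid marker means of the 8, 8.33 and 8.10, and the lowest glomerular endothelial marker means, 10.18 and 10.27. Mouse 4 had the lowest podocyte marker mean, 10.79. The 4 tested loop, distal tubule and collecting duct markers averaged 11.05 in mouse 1 and 10.22 in mouse 4, the lowest of the 8. Of these markers 1 had a positive and 3 a negative log2 fold change. The part of these cell populations in the *Phlda2* level was not tested.

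**Figure D2:**
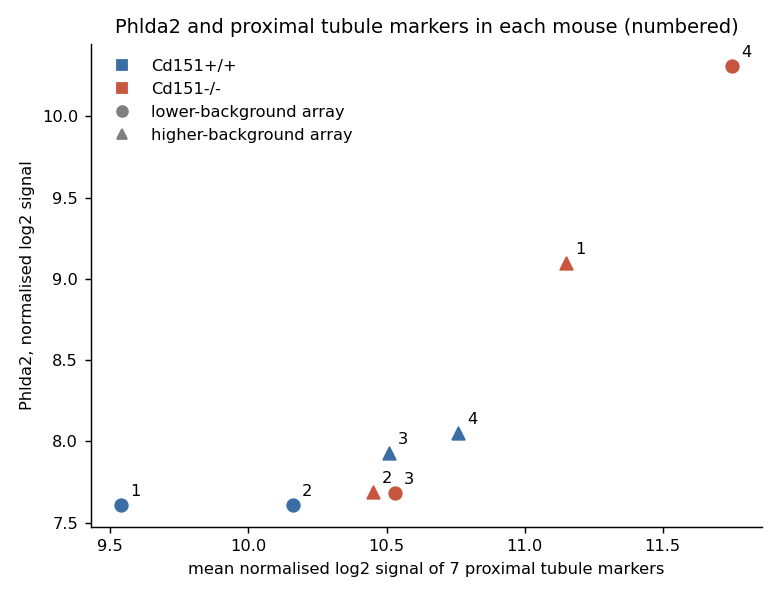
Normalised log2 signal of *Phlda2* (vertical axis) against the mean normalised log2 signal of 7 proximal tubule markers (horizontal axis), 1 point per numbered mouse, blue for *Cd151*+/+ and red for *Cd151*-/-, with circles for lower-background and triangles for higher-background arrays. *Cd151*-/- mice 1 and 4, at 9.10 and 10.31 for *Phlda2*, lie at marker means of 11.15 and 11.75, to the right of the other 6 mice.

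*Kcnq1*, the potassium channel gene after which the domain is named, was read by 2 probes. ILMN_2777879 was detected in all 8 mice, at 6.32, 6.47, 5.63 and 6.62 in *Cd151*+/+ mice 1 to 4 and 5.87, 5.78, 5.80 and 6.31 in *Cd151*-/- mice 1 to 4. The genotypes overlapped, with control mouse 3 the lowest of all. The means were 6.26 ± 0.44 and 5.94 ± 0.25 (SD, n = 4), a log2 fold change of -0.32 (SE 0.26, 95% interval -0.89 to 0.25, limma p = 0.241, adjusted 0.918, exact permutation p = 0.286), and without control mouse 3 it was -0.53 (limma p = 0.0464). The values within the lower- and higher-background arrays were -0.34 and -0.30. The second probe, ILMN_1237984, was detected in 1 mouse of each genotype and read 1.13 to 1.22 times the background, with a log2 fold change of 0.01 (SE 0.24, limma p = 0.979, adjusted 0.997, exact permutation p = 0.971). Its direction turned under 6 of 17 other settings, and its signal was at the limit of detection. *Kcnq1ot1*, the silencing RNA of the domain, has no probe on this array under that symbol.

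*Nap1l4*, a histone chaperone gene at the edge of the domain, was detected in all 8 mice at 55.6 to 90.4 times the background (ILMN_2769696). Its level was 12.82, 12.82, 13.00 and 12.61 in *Cd151*+/+ mice 1 to 4 and 12.79, 12.81, 13.13 and 12.76 in *Cd151*-/- mice 1 to 4. The 2 genotypes were interleaved, and mouse 3 was the highest in each. The means were 12.81 ± 0.16 and 12.87 ± 0.17 (SD, n = 4), a log2 fold change of 0.06 (SE 0.20, limma p = 0.775, adjusted 0.963, exact permutation p = 0.714), with a 95% interval of the ratio from 0.768-fold to 1.41-fold.

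*Ascl2*, a transcription factor gene of the trophoblast and of intestinal stem cells, and *Osbpl5*, a lipid transfer protein gene imprinted in the placenta, were not detected in any mouse. *Ascl2* (ILMN_2919900) read 4.76 ± 0.22 in *Cd151*+/+ and 4.99 ± 0.11 in *Cd151*-/- mice and *Osbpl5* (ILMN_1245737) 4.88 ± 0.21 and 4.63 ± 0.18 (SD, n = 4). The lowest detected level on these arrays was 5.22 to 5.48, so the readings bound both genes from above and give no difference between genotypes.

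The genes lying among and beside the members were taken as a list of 19, in the order that assembly GRCm38.p6 gives. Of these, 18 were on the array and 12 were tested by their brightest probe. The tested probes gave 3 positive and 9 negative log2 fold changes, with a median of -0.15. *Cars*, with a positive value, was detected in 0 *Cd151*+/+ mice and 1 *Cd151*-/- mouse. It passed the detection filter through a *Cd151*-/- array alone. None of the 12 passed adjustment, against 0.0334% of all tested probes. At an unadjusted p of 0.05 or lower there were 3, against 4.3% of all tested probes, 1 higher (1.69% of all) and 2 lower (2.61% of all) in *Cd151*-/- mice. In 2 the genotypes did not overlap, both lower, against 1.46% of all tested probes in that direction. The first of these, *Tspan32*, a tetraspanin gene between *Ascl2* and *Kcnq1*, was 5.83, 6.05, 6.20 and 6.48 in *Cd151*+/+ mice and not detected in any *Cd151*-/- mouse. It was at least 1.74-fold lower in *Cd151*-/- mice (limma p = 2.21e-05, adjusted 0.0552, exact permutation p = 0.0286), and its adjusted p over the other settings ran from 0.0151 to 0.995. *Tspan32* passed the detection filter through the *Cd151*+/+ arrays alone, so it was tested only because of the genotype where it was higher. Of the members on either side of it, *Ascl2* was not detected and *Kcnq1* had the values given above.

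The second was *Tnfrsf22*, a decoy receptor gene between *Nap1l4* and *Osbpl5*, at 9.70, 9.94, 9.38 and 9.22 in *Cd151*+/+ and 7.24, 7.78, 8.43 and 7.96 in *Cd151*-/- mice (ILMN_2454204). Every *Cd151*-/- mouse lay below every control. The log2 fold change was -1.71 (SE 0.28, limma p = 8.61e-05, adjusted 0.184, exact permutation p = 0.0286), with an adjusted p of 0.0102 to 0.998 over the other settings, and its second tested probe had -0.76 (limma p = 0.0472). *Nadsyn1*, an NAD synthetase gene that follows *Osbpl5*, had a log2 fold change of 1.06 (SE 0.33, limma p = 0.00848, adjusted 0.918, exact permutation p = 0.0571) by its brightest probe, whereas its other tested probes gave 0.58 and -0.39. The tested members and neighbours thus had both signs along the chromosome, with positive values at the members *H19*, *Igf2* and *Phlda2* and the neighbour *Nadsyn1* (brightest probe) and negative values at the member *Kcnq1* (ILMN_2777879) and the neighbours *Tspan32* and *Tnfrsf22*.

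**Figure D3:**
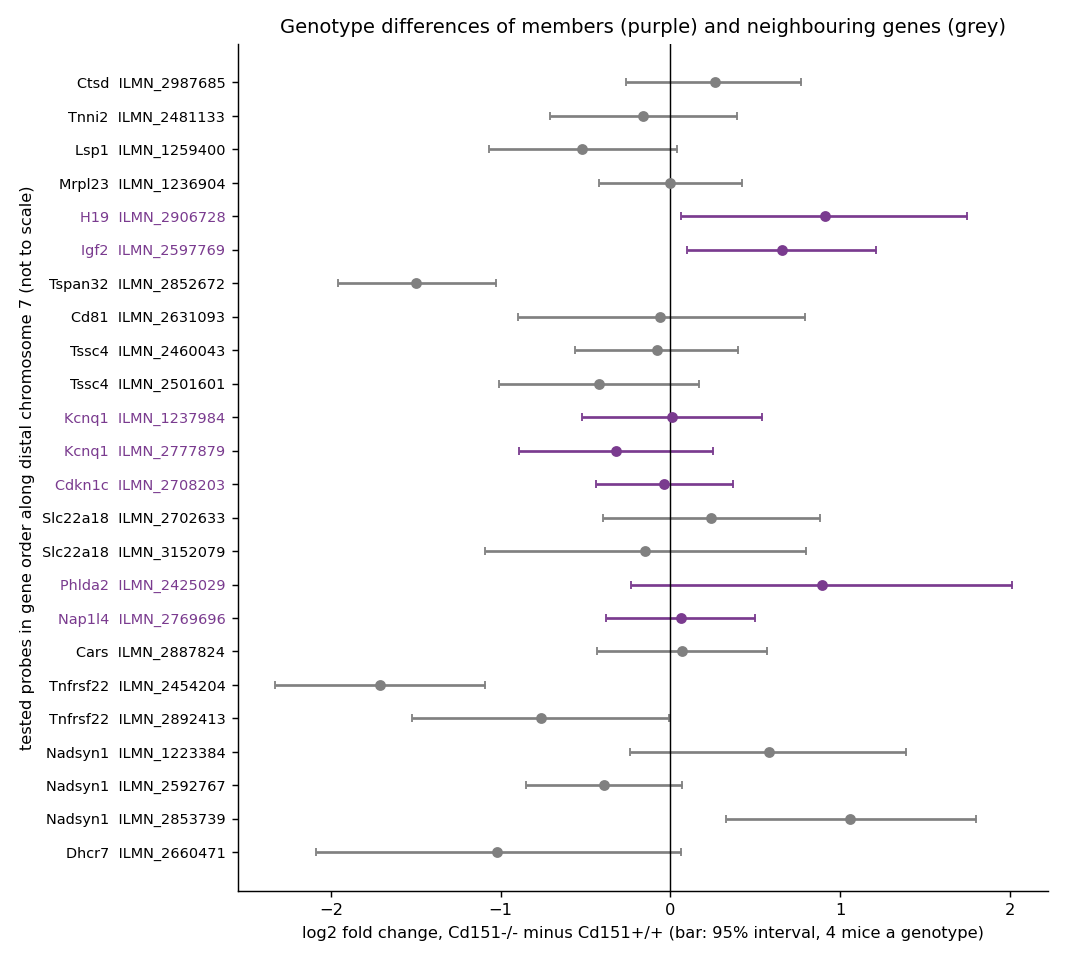
Log2 fold change, *Cd151*-/- minus *Cd151*+/+, of every tested probe of the members (purple) and of the listed neighbours (grey), ordered by gene along distal chromosome 7 and not to scale. Points are limma estimates and bars their 95% intervals from 4 mice a genotype. Among the members the intervals of *H19* and *Igf2* lie above 0, and among the neighbours that of *Nadsyn1* ILMN_2853739, 0.33 to 1.80, lies above it and those of *Tspan32* and of both tested *Tnfrsf22* probes lie below it.

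The genes whose level followed each member most closely over the 8 arrays were listed as a description, by Pearson correlation among 7354 genes detected on all arrays. For *H19* they were *Cltb* (0.947), *Myom1* (0.921) and *Tubb4b* (0.917), and for *Igf2* *Zfp27* (0.953), *Adamtsl4* (0.953) and *Bhlhb9* (0.951). For *Phlda2* they were *Neu2* (0.985), *Fermt1* (0.976) and *Acy1* (0.975). For *Kcnq1* they were *Fzd5* (0.956), *Pmm2* (0.951) and *Pdcl3* (0.941), for *Nap1l4* *Mill2* (0.920), *BC057552* (0.916) and *Ica1* (0.914), and for *Cdkn1c* *Mrgpra2* (0.925), *Nr2c2ap* (0.883) and *Mdn1* (0.883). Those of *Cdkn1c* rest on normalised values that could hardly differ between arrays. No member was among the nearest genes of another. The 8 arrays behind these values share genotypes, array sets and cell mixtures.

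**Figure D4:**
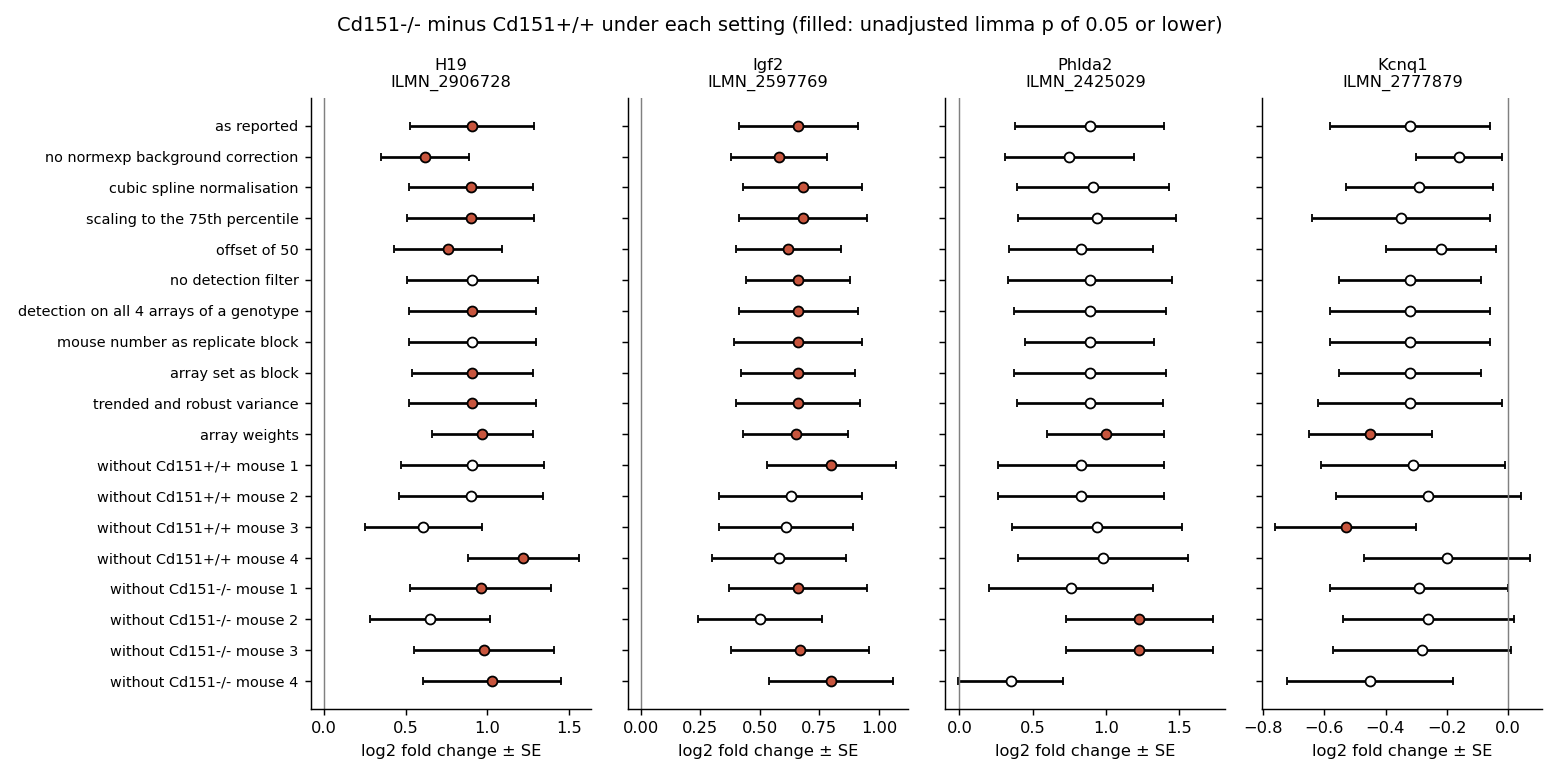
Log2 fold change (*Cd151*-/- minus *Cd151*+/+) with its SE for *H19*, *Igf2*, *Phlda2* and the *Kcnq1* probe detected in all mice, as reported and under each other setting, including each mouse left out in turn. Filled points have an unadjusted limma p of 0.05 or lower. *H19* keeps a positive value between 0.61 and 1.22 and *Igf2* between 0.50 and 0.80, and some of their points are unfilled with 1 mouse left out.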

How the data were processed

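Glomerular RNA of 4 *Cd151*+/+ and 4 *Cd151*-/- mice was measured on 8 arrays. The authors deposited raw bead signal intensity, neither background-subtracted nor normalised, and a detection p-value for each probe, in steps of 1 over 798. Genome build and probe sequences are not given in the sources used here, and slides are not named, so no slide block was fitted. In R 4.3.3, limma 3.58.1 inferred the background of each array from the detection p-values, corrected it (normexp, offset 16), quantile-normalised, took log2 and fitted genotype with lmFit and eBayes over the 14967 probes detected on 1 array or more, with Benjamini-Hochberg adjustment. Fold bounds use the lowest detected signal of each array. The procedure was tested on simulated data. Signal over background and 8 arrays limit the precision; each mouse is a separate animal.

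All member probes are reported. Of each list, genes with an adjusted p of 0.05 or lower would be named, otherwise up to 4 with the lowest unadjusted p of 0.05 or lower, by the brightest tested probe of a gene; further genes of a list were named for their function after their values were seen. Members and lists were chosen with earlier results of these data known. Symbols were matched to GRCm38.p6, 12036 directly and 5204 through a synonym. Alternatives were no normexp, cubic spline through 15 quantiles (re-implemented), an offset of 50, scaling to the 75th percentile, other detection filters, mouse number or array set as a block, trended robust variance, array weights and each mouse left out. The permutation method of the study's methods (SAM) was not run. The results of some single genes are not reported here.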

Additional observations from a re-analysis of the deposited data

Results flagged for a closer look

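In the 4 *Cd151*-/- mice, *Nap1l4* (ILMN_2769696) was 13.13 in mouse 3, away from the nearest of the others at 12.81, a gap of 0.859 of the range of the group. It was the only one of 20 groups of 4 mice, 10 probes in 2 genotypes, with such a gap, and chance gives about 1 in 20.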

How the results depend on the processing

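No member probe passed adjustment under any of the 18 other settings, and *H19*, *Igf2*, *Phlda2* and *Kcnq1* (ILMN_2777879) kept their direction in all of them. The count of member probes at an unadjusted p of 0.05 or lower, 2 as reported, was 1 without a detection filter, 1 with mouse number as a replicate block, 4 with array weights and 0 to 3 with 1 mouse left out, 0 without *Cd151*+/+ mouse 2 and 1 without *Cd151*+/+ mouse 1, 3 or 4 or *Cd151*-/- mouse 2. Among the neighbours, the count past adjustment, 0 as reported, was 1 without a detection filter, 1 with detection on all 4 arrays of a genotype, 2 with array set as a block and 2 with array weights, and the count at an unadjusted p of 0.05 or lower, 3 as reported, was 5 with array weights and 3 to 5 with 1 mouse left out, 5 without *Cd151*-/- mouse 2 or 3. The share of all tested probes at an unadjusted p of 0.05 or lower also moved with the setting. It was 4.26% without a detection filter, 2.81% with mouse number as a block and 32.2% with array weights. With 1 mouse left out the share was 2.3% to 9.42%, with 5.39% without *Cd151*-/- mouse 2 and 9.42% without *Cd151*-/- mouse 3. Direction turned for probes near 0. *Cdkn1c* was 0.03 with the cubic spline and 0.01 without *Cd151*-/- mouse 1. With 75th percentile scaling *Cdkn1c* stayed negative, at -0.21 (SE 0.35), its lowest value under any setting. *Nap1l4* was -0.01 without *Cd151*+/+ mouse 4 and -0.03 without *Cd151*-/- mouse 3. Its range was -0.03 to 0.12 with 1 mouse left out. *Kcnq1* ILMN_1237984 was 0 with the cubic spline, -0.18 at the 75th percentile and -0.23 with array weights. It was -0.06 and -0.07 without *Cd151*+/+ mouse 3 or 4, and -0.16 without *Cd151*-/- mouse 3, in a range of -0.16 to 0.11 with 1 mouse left out. The cause was not tested.

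Over all probes, the share at an unadjusted p of 0.05 or lower was 4.3% as reported, 11.3% (780 higher, 910 lower) with array set as a block, 32.2% (2336 higher, 2480 lower) with array weights and 2.6% (139 higher, 250 lower) with 75th percentile scaling, and 0.0334% passed adjustment as reported, 5 probes, against 8, 7 and 5. The deviations of same-numbered mice from their group means correlated at -0.58 to -0.01, and 0 of 8 mice correlated best with their own number. Same-numbered mice always lay in different array sets, so these correlations cannot show whether mouse numbers pair the samples. The replicate block left 4 probes past adjustment and, at an unadjusted p of 0.05 or lower, 205 higher and 215 lower, against 253 and 390. The signals of *H19* and *Kcnq1*, close to background, limit what could be seen of them.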

Other observations

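Imprinted genes outside distal chromosome 7 were read as a further list of 29 genes, of which 27 were on the array and 14 were tested. Of these, 9 had a positive and 5 a negative log2 fold change (*Cd151*-/- minus *Cd151*+/+), and the median was 0.22. The positive *Peg3*, *Peg10* and *Gatm* were detected on no *Cd151*+/+ array. They passed the detection filter through *Cd151*-/- arrays alone, so they were tested only because of the genotype where they were higher. With limma, 0 of the 14 passed adjustment, against 0.0334% of all tested probes. One of the 14 had an unadjusted p of 0.05 or lower, against 4.3% of all tested probes. That count was 0 without normexp, with 75th percentile scaling, with an offset of 50, with detection on all 4 arrays of a genotype, and without *Cd151*+/+ mouse 1 or 2 or *Cd151*-/- mouse 1 or 2, whereas it was 2 without *Cd151*+/+ mouse 3, 3 without *Cd151*-/- mouse 4 or without a detection filter, 4 with array set as a block and 6 with array weights. Of all tested probes, 2.3% to 5.39% were called in the settings with 0, and 5.26%, 3.22%, 4.26%, 11.3% and 32.2% in the others, in the order given. The gene was *Peg3*, a paternally expressed zinc finger gene, above background in 3 *Cd151*-/- mice and 0 *Cd151*+/+ mice, with genotypes that overlapped. Its mean over all 4 *Cd151*-/- mice, the undetected one included, was 1.15-fold the lowest detected signal of the control arrays. The genotype comparison gave a limma p of 0.0323 (adjusted 0.918) and an exact permutation p of 0.143. *Peg3* passed the detection filter through the *Cd151*-/- arrays alone, so it was tested only because of the genotype where it was higher. *Mest*, also paternally expressed, had means of 5.63 ± 0.68 and 6.56 ± 0.88 (limma p = 0.0636, exact permutation p = 0.171), and *Snrpn* 7.49 ± 0.66 and 8.28 ± 0.71 (limma p = 0.0771, exact permutation p = 0.143). *Dlk1*, a paternally expressed Notch-like gene, had 10.13 ± 0.15 and 9.94 ± 0.73 (SD, n = 4, limma p = 0.58, exact permutation p = 0.657), and *Grb10*, an adaptor that restrains insulin and IGF signalling, 10.67 ± 0.43 and 10.62 ± 0.32 (limma p = 0.837, exact permutation p = 0.914).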
